A study of Mus musculus with 12 samples.

Results

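Hox transcripts were read along the body axis order in 12 RNA sequencing libraries of mouse embryo heads. The Hox genes were taken as every row of the count table named Hox, a cluster letter from a to d, and a paralog number. This gave 39 of the 24421 gene symbols, with 11 in the A cluster, 10 in B, 9 in C and 9 in D. Antisense and noncoding genes of the clusters were left out of the set.

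The embryos model a human craniofacial condition, mandibulofacial dysostosis with microcephaly, through changes of Eftud2 targeted to the neural crest. Eftud2 encodes a spliceosomal GTPase that belongs to the U5 particle. Heterozygous embryos (Eftud2+/-), which served as controls and so carried an altered allele too, were set against homozygous embryos (Eftud2-/-) at embryonic day 9.0 (E9.0) and E9.5, all of strain C57Bl/6 and untreated. Each of the 4 groups held 3 libraries. The labels give the source as neural crest cells and the tissue as cranial nerve ganglia, while the protocol speaks of heads kept in RNAlater, so the axial extent of the tissue is not fixed by the labels. The Cre driver, the somite numbers and the number of embryos in a library are not given in the sources used here. Nothing says that libraries came from separate embryos or pools, and p-values measure the spread between these libraries only.

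Hox proteins are homeodomain transcription factors that give cells their position along the body axis. Vertebrate Hox genes lie in 4 clusters, and genes at the same place in different clusters form a paralog group. Low-numbered groups are switched on first and reach furthest forward, while high-numbered groups come on later and stay in the trunk and tail. In the head, the forebrain, the midbrain and the crest cells of the first arch lack Hox transcripts. Rhombomeres of the hindbrain and the crest of the more posterior arches carry groups 1 to 4, and the forward limits of groups 4 and 5 lie near the border of hindbrain and spinal cord. The highest paralog group seen in a dissected head can be read as a sign of how far back the tissue reached.

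Total counts ran from 13914543 to 31172708 per library, and levels are given as CPM, on library sizes scaled by TMM factors (the trimmed mean of M-values). Rn45s, the ribosomal RNA precursor row, held 37.4% of E9.0 heterozygous replicate 1 and between 4.40% and 16.2% of the others, and the TMM factor of that library was 0.664. Eftud2 itself was at 275 to 302 CPM in heterozygous and 232 to 236 CPM in homozygous libraries at E9.0, and at 248 to 264 against 221 to 226 CPM at E9.5, without overlap between genotypes. Its log2 difference was -0.29 ± 0.05 (SE, edgeR adjusted p = 0.0193) at E9.0 and -0.19 ± 0.05 (edgeR adjusted p = 0.0906) at E9.5. Markers of the forebrain and midbrain summed to 146 to 211 CPM, neural crest markers to 415 to 818 CPM, and heart muscle markers to 65.7 to 2926 CPM, so other tissues than ganglia and crest were present in every library.

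The Hox clusters lie on mouse chromosomes 6 (A), 11 (B), 15 (C) and 2 (D). In GRCm38 coordinates the A genes span chr6:52155590-52260880 on the minus strand. The B genes span chr11:96194316-96368256, the C genes chr15:102921103-103036852 and the D genes chr2:74668310-74765142, all on the plus strand. RefSeq promoter sequences (GRCm38.p6, 250 bases before to 50 after the start site) were found for 22 of the 39 genes, as 24 entries. The sequences below are those of genes from groups 4 and 5, whose stage differences are described further on, with Hoxb1 of group 1 for comparison. Capitals mark 3 motifs searched on both strands: AGGTCA (the retinoid receptor half-site), TGATNNAT (a composite site for Hox and Pbx proteins) and TTTATG (a Cdx site).
Hoxb1 (chr11:96365508-96365807, plus strand): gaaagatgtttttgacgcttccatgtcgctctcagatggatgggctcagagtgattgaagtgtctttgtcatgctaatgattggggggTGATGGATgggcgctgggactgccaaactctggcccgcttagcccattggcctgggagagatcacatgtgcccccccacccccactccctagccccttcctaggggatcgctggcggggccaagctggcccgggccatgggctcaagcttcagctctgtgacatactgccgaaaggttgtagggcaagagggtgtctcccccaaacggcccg
Hoxb4 (chr11:96318017-96318316, plus strand): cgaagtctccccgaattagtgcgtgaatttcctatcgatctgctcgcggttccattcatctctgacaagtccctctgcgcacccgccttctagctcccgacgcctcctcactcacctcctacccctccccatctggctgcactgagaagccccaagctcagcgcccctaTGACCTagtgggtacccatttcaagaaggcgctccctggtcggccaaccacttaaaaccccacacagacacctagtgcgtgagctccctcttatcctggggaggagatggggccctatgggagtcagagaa
Hoxc4 (chr15:103034145-103034444, plus strand): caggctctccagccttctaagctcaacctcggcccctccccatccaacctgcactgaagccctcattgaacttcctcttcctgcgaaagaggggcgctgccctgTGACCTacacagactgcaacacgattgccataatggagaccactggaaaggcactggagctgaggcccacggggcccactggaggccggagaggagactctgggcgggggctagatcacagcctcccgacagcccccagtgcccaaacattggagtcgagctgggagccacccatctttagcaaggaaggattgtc
Hoxd4 (chr2:74721728-74722027, plus strand): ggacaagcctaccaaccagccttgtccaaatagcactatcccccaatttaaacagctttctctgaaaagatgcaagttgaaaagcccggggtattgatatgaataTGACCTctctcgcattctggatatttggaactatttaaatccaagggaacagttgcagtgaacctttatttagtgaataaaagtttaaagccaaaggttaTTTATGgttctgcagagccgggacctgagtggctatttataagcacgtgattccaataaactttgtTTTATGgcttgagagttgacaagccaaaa
Hoxa5 (chr6:52204538-52204837, minus strand): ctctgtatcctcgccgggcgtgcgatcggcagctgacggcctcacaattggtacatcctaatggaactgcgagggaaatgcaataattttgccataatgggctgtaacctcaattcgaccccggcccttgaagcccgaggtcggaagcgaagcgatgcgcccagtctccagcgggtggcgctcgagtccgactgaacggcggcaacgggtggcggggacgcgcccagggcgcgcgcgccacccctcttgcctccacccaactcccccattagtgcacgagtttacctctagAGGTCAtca
The Hoxb4, Hoxc4 and Hoxd4 windows hold AGGTCA on the minus strand, printed as its complement TGACCT, at -81, -146 and -145 from the start site. The Hoxa5 window holds it on the plus strand at +41. AGGTCA was found in 7 of the 24 Hox entries (29.2%) and in 16.3% of 32851 promoters of the same length. The Hoxb1 window holds 1 TGATNNAT match at -162, a motif of 4 Hox entries (16.7%) and 8.85% of all promoters. The Hoxd4 window holds TTTATG at -45 and +21, a motif of 5 Hox entries (20.8%) and 11.9% of all promoters. In the Hoxd3 entry, a match of AGGTCA overlaps one of TTTATG. A match of these letters is a description and not a bound site.

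Every library was read from group 1 backwards. Groups 1 to 4 were present in all 12 libraries, group 5 was low at E9.0 and higher at E9.5, and beyond group 6 most rows were near the counting floor. Per kilobase of transcript, group 2 was the highest in 12 of 12 libraries. Of the 39 members, 15 had at least 1 count in every library and 9 had 3 counts or fewer in every library. A floor of 3 counts corresponds to 0.088 to 0.226 CPM, depending on the library, and covers counting error only. The filter on low counts passed 17 members: all 15 of groups 1 to 5, and Hoxb6 and Hoxb8 of the 24 members of groups 6 to 13.

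**Figure D1:**
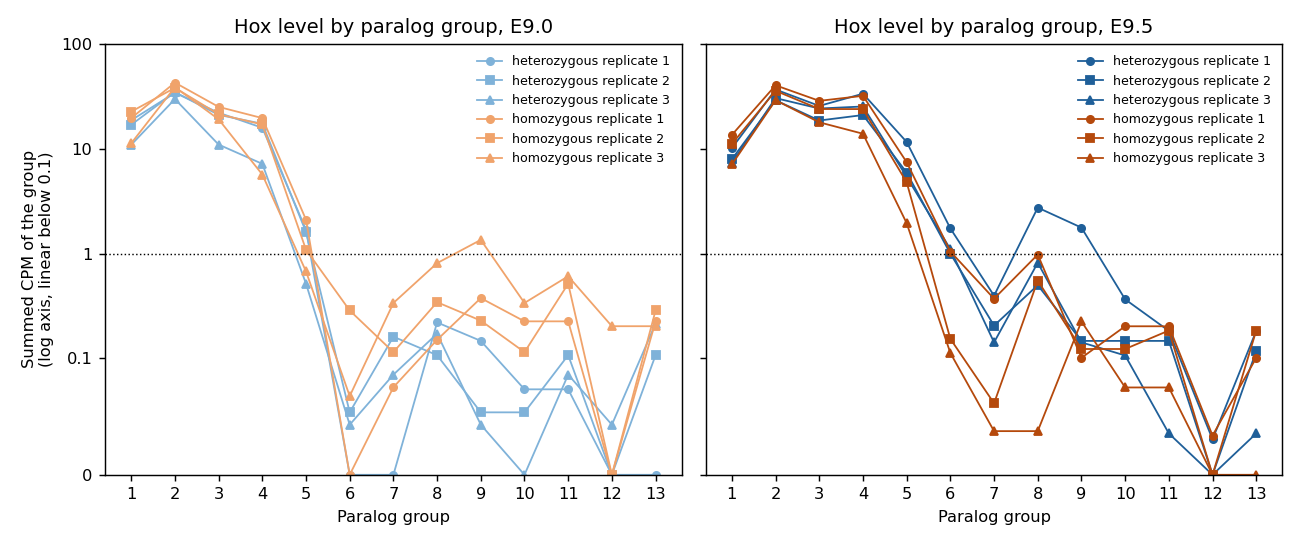
Summed CPM of the members of each paralog group (vertical axis, logarithmic and linear below 0.1) against paralog group (horizontal axis), 1 line per library, with E9.0 left and E9.5 right; the dotted line is at 1 CPM. All libraries peak at group 2, the E9.0 lines cross 1 CPM between groups 4 and 6, and the E9.5 lines between groups 5 and 7; E9.0 homozygous replicate 3 and E9.5 heterozygous replicate 1 rise above 1 CPM again at groups 8 or 9.

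In group 2, Hoxa2 sets the identity of second arch crest and Hoxb2 marks rhombomeres from the third backwards. The group's sum at E9.0 was 34.2, 34.7 and 29.8 CPM in heterozygous replicates 1, 2 and 3 and 42.8, 38.1 and 38.7 CPM in homozygous replicates 1, 2 and 3. At E9.5 the sum was 36.8, 29.1 and 30.4 CPM in heterozygous and 40.3, 35.7 and 29.1 CPM in homozygous libraries, in the same order of replicates, which is kept for all values that follow. The homozygous sums lay above the heterozygous ones at E9.0, while the groups overlapped at E9.5. Per kilobase of transcript, Hoxb2 had the highest mean level of any Hox gene, at 13.3 CPM per kilobase over 12 libraries.

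Groups 1, 3 and 4 came next. Group 1, which acts earliest and patterns the fourth rhombomere and its neighbours, summed to 10.9 to 22.6 CPM at E9.0 and 7.09 to 13.6 CPM at E9.5. Group 3 (Hoxa3, Hoxb3 and Hoxd3), which acts in the third arch and the posterior hindbrain, summed to 10.97 to 25.1 CPM at E9.0 and 17.9 to 28.7 CPM at E9.5. Group 4 (Hoxa4, Hoxb4, Hoxc4 and Hoxd4), whose forward limit lies in the most posterior hindbrain, summed to 5.67 to 19.6 CPM at E9.0 and 13.9 to 33.5 CPM at E9.5. The leading gene per kilobase was Hoxb3 in group 3 (3.52 CPM per kilobase over 12 libraries) and Hoxd4 in group 4 (3.65). These means lie close together. Hoxd4 was at 2.77 CPM per kilobase at E9.0 and 4.54 at E9.5 in heterozygous libraries, and at 3.31 and 3.98 in homozygous libraries, and its stage difference was called in neither genotype.

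Group 5 (Hoxa5, Hoxb5 and Hoxc5), genes of the anterior spinal cord, foregut and cervical somites, was low at E9.0 and higher at E9.5. Its sum at E9.0 was 1.69, 1.61 and 0.516 CPM in heterozygous and 2.10, 1.09 and 0.675 CPM in homozygous libraries. By E9.5 the sum was 11.6, 5.93 and 5.399 CPM in heterozygous and 7.45, 4.79 and 1.95 CPM in homozygous libraries. In heterozygous embryos all E9.5 libraries lay above all E9.0 ones, while in homozygous embryos E9.5 replicate 3 lay below E9.0 replicate 1.

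Group 6 (Hoxa6, Hoxb6 and Hoxc6), which belongs to the forelimb and upper trunk level, was close to 0 at E9.0. Hoxb6 had 0, 1 and 0 counts in heterozygous and 0, 3 and 1 counts in homozygous libraries at E9.0, and 47, 33 and 29 against 26, 5 and 3 counts at E9.5. Hoxc6 had at most 1 count in any E9.0 library, and 9, 1 and 2 counts in heterozygous and 4, 0 and 0 counts in homozygous libraries at E9.5. Hoxa6 had at most 1 count in any library. The group 6 signal was thus almost wholly that of Hoxb6, at the E9.5 stage.

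The posterior limit of a library was taken as the highest paralog group up to which every group, counted from 1, summed to at least 1 CPM. At E9.0 it was group 5, 5 and 4 in heterozygous and 5, 5 and 4 in homozygous replicates 1, 2 and 3. At E9.5 it was group 6, 5 and 6 in heterozygous and 6, 5 and 5 in homozygous replicates. At E9.0 each genotype thus had 1 library at group 4 and 2 at group 5. At E9.5 heterozygous embryos had 2 libraries at group 6 and 1 at group 5, and homozygous embryos 1 at group 6 and 2 at group 5. E9.5 heterozygous replicate 2 stood just under the limit of group 6, with 0.998 CPM.

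Beyond the limit, a pair of libraries passed 1 CPM again. E9.5 heterozygous replicate 1 had 2.74 CPM in group 8 and 1.77 CPM in group 9, mostly from 48 counts of Hoxd8, 36 of Hoxb8, 37 of Hoxd9 and 15 of Hoxa9. In the other E9.5 libraries Hoxd9 had at most 3 counts and Hoxd8 at most 9. E9.0 homozygous replicate 3 had 1.35 CPM in group 9, of which 12 counts were Hoxa9. E9.5 homozygous replicate 1 stayed just under, with 0.978 CPM in group 8. Hoxb8, the leading gene of that group, had 2, 0 and 2 counts in heterozygous and 1, 2 and 5 counts in homozygous libraries at E9.0, and 36, 11 and 15 against 27, 9 and 0 counts at E9.5. Hoxd8 and Hoxd9 of the D cluster are trunk genes, and in E9.5 heterozygous replicate 1 they stood with 20.7 CPM of Afp, a yolk sac endoderm and liver gene that was at 0.0674 CPM or less in the other 5 E9.5 libraries. Yolk sac endoderm markers summed to 28.0 CPM in that library and to 2.79 to 4.97 CPM in those 5. The part of other tissue in these posterior counts was not tested.

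Of the 16 most posterior genes, those of groups 9 to 13, 8 had 3 counts or fewer in every library. Over all 12 libraries, the gene with the highest mean per kilobase was Hoxd9 in group 9, Hoxa10 in group 10, Hoxd11 in group 11, Hoxc12 in group 12 and Hoxd13 in group 13. Without E9.5 heterozygous replicate 1 it was Hoxa9 in group 9, and without E9.0 homozygous replicate 3 it was Hoxc13 in group 13. The order also turned with stage and genotype. In E9.5 heterozygous libraries Hoxd10 (0.0567 CPM per kilobase) lay above Hoxa10 (0.0318). Hoxa7 (0.0685) lay above Hoxb7 (0.0296) in E9.0 homozygous libraries, and Hoxd8 (0.0337) above Hoxb8 (0.0295) in E9.0 heterozygous ones. Hoxd9 had 0 counts in the heterozygous and 3, 2 and 2 in the homozygous libraries at E9.0, and 37, 0 and 1 against 3, 0 and 0 at E9.5. Hoxa10 had 1, 1 and 0 against 3, 1 and 3 counts at E9.0, and 3, 4 and 1 against 5, 4 and 1 at E9.5. Hoxd11 had 1, 0 and 2 against 1, 5 and 4 counts at E9.0, and 3, 0 and 1 against 4, 1 and 0 at E9.5. Of these 3 genes, Hoxd9 in E9.5 heterozygous replicate 1 gave the one value above 5 counts. Hoxd13, which acts in the tail and the digits, had 0, 1 and 2 against 1, 2 and 2 counts at E9.0, and 3, 0 and 0 against 2, 3 and 0 at E9.5. Hoxc12 had 1 count in each of 3 libraries and 0 in the rest. Hoxb7, the leading gene of group 7, had 0, 1 and 1 against 0, 2 and 0 counts at E9.0, and 8, 6 and 4 against 11, 0 and 1 at E9.5.

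The level of group 4 relative to group 2 differed between libraries of the same group. The ratio stood at 0.464, 0.499 and 0.241 in heterozygous and 0.459, 0.447 and 0.147 in homozygous libraries at E9.0. At E9.5 this ratio was 0.912, 0.722 and 0.832 in heterozygous and 0.793, 0.669 and 0.479 in homozygous libraries. The lowest library of its group was replicate 3 in 3 groups and replicate 2 in the E9.5 heterozygous group. The summed somite markers, a sign of trunk tissue, were 39.5, 43.7 and 26.6 CPM in heterozygous and 54.9, 54.0 and 29.5 CPM in homozygous libraries at E9.0. At E9.5 they were 30.1, 20.1 and 25.8 against 60.3, 26.1 and 19.0 CPM. In each of the 4 groups, the library lowest in the ratio of group 4 to group 2 was also the lowest in the somite sum. edgeR called 0 of the 7 somite markers tested in each of the 6 comparisons, with 0 to 2 of them at an unadjusted p under 0.05. Of all genes, 35.2% and 35.4% were called between stages in heterozygous and homozygous libraries, and 0.0675% to 2.96% in the other comparisons. The shares with an unadjusted p under 0.05 were 44.2% and 44.7% between stages and 8.6% to 16.9% in the others. Aldh1a2, which makes retinoic acid in the somites and flank, was at 22.5, 23.0 and 11.3 against 18.6, 24.3 and 13.6 CPM at E9.0, and at 11.7, 4.52 and 8.49 against 19.9, 7.19 and 4.58 CPM at E9.5. Its lowest value within each group fell in the same library again. How far the dissection line reached was not tested, and in bulk RNA fewer cells of a type and less RNA per cell cannot be told apart.

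**Figure D2:**
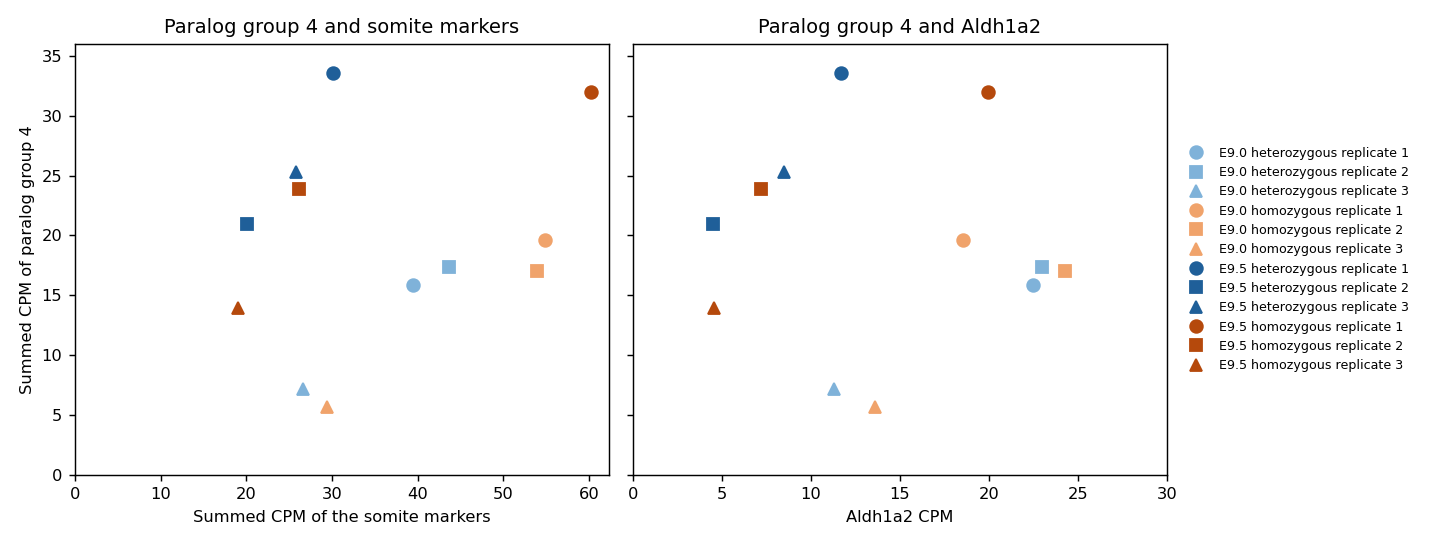
Summed CPM of paralog group 4 (vertical axis) against the summed CPM of 8 somite markers (left) and the CPM of Aldh1a2 (right), 1 point per library; colour gives the group and shape the replicate. Within each stage the libraries lowest in group 4, replicates 3 of both genotypes at E9.0 and homozygous replicate 3 at E9.5, lie at the low end of the somite sum, and the E9.5 libraries lie higher in group 4 at a given somite sum.

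The stage comparison asked how the Hox profile moved from E9.0 to E9.5. Genes of groups 3 to 6 were called higher at E9.5 in heterozygous libraries, and genes of groups 4 and 5 in homozygous ones. No gene of group 2 was called in either genotype. In heterozygous libraries, 6 of the 17 tested Hox genes were higher and 1 lower at E9.5 (edgeR quasi-likelihood test, Benjamini-Hochberg adjusted p under 0.05 over 14810 genes). That is 41.2% of those tested, against 35.2% of all genes tested (19.2% higher and 16% lower), so the share is near the background. Hoxd1, Hoxb5, Hoxc5, Hoxb6 and Hoxb8 passed the filter only through their E9.5 levels, which favours genes that are higher at E9.5, so their stage tests are no independent support. Of the other 12, which passed on the E9.0 libraries alone, 3 were called higher and 1 lower in heterozygous libraries, and 1 higher and 0 lower in homozygous libraries. In homozygous libraries 3 of 17 were higher and 0 lower, 17.6% against 35.4% of all genes (19.6% higher and 15.8% lower). This count of 3 was 5 with DESeq2 and 1 with no filter on low counts, and ran from 2 to 4 with a library left out. Both stage counts were higher with the replicate number as a block, as given at the end. The numbers were not taken as pairs. The number of Hox genes with an unadjusted p under 0.05, in either direction, was 10 in heterozygous and 6 in homozygous libraries, 58.8% and 35.3% of those tested against 44.2% and 44.7% of all genes.

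In heterozygous libraries the median log2 stage difference was -0.70 in group 1, -0.03 in group 2, 0.07 in group 3, 1.33 in group 4 and 2.38 in group 5, against 0.0082 over all genes tested. In homozygous libraries it was -0.53, -0.20, 0.14, 1.21 and 2.14, against 0.015. The medians of groups 1 and 5 hold genes that passed only through E9.5 and are a description. The share of all genes without overlap between stages is not given here. A lack of overlap between stages is therefore a description too, for every gene and sum.

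All 3 genes of group 5 were called in heterozygous libraries. Hoxb5 and Hoxc5 passed the filter only through their E9.5 levels, so their stage calls are a description and no independent support. Hoxc5, a gene of cervical and upper thoracic levels, was at 0.587, 0.429 and 0.172 CPM in heterozygous and 0.752, 0.172 and 0.203 CPM in homozygous libraries at E9.0. By E9.5 Hoxc5 was at 5.82, 2.61 and 2.52 CPM in heterozygous and 3.37, 2.06 and 0.788 CPM in homozygous libraries. All E9.5 libraries lay above all E9.0 ones in both genotypes, a description with no share of all genes beside it. Its log2 difference was 3.31 ± 0.67 (SE, n = 3 against 3, edgeR adjusted p = 0.00274) in heterozygous and 2.54 ± 0.76 (edgeR adjusted p = 0.0213) in homozygous libraries. Without homozygous replicate 2 or 3 of E9.0, or homozygous replicate 1 of E9.5, the homozygous call was lost, with edgeR adjusted p of 0.0943, 0.0897 and 0.0501. With no filter on low counts the edgeR adjusted p was 0.0144 in heterozygous and 0.0677 in homozygous libraries. The homozygous call was lost with limma-voom too. Hoxc5 shares exonic bases with Hoxc10 on the same strand, so its counts are uncertain in that part.

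Hoxb5, which acts in the neck and in vagal crest, was at 0.661, 0.375 and 0.129 CPM in heterozygous and 0.526, 0.172 and 0.135 CPM in homozygous libraries at E9.0. By E9.5 Hoxb5 was at 1.77, 1.53 and 1.28 against 1.55, 1.41 and 0.563 CPM. The stages did not overlap in either genotype. The log2 difference was 2.11 ± 0.48 (edgeR adjusted p = 0.00305) in heterozygous and 2.14 ± 0.55 (edgeR adjusted p = 0.00693) in homozygous libraries. With no filter on low counts the edgeR adjusted p was 0.00106 and 0.00301. Hoxb5 passed the filter only through E9.5, so its stage calls are no independent support. Hoxb5os lies antisense to it, and the strand setting of the counting is not given in the sources used here.

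Hoxa5, whose product acts in the foregut and lung, was at 0.440, 0.804 and 0.215 CPM in heterozygous and 0.827, 0.745 and 0.338 CPM in homozygous libraries at E9.0. The E9.5 values were 4.02, 1.79 and 1.60 against 2.53, 1.32 and 0.600 CPM. The stages did not overlap in heterozygous libraries and did in homozygous ones, through E9.5 homozygous replicate 3. Hoxa5 had a log2 difference of 2.38 ± 0.62 (edgeR adjusted p = 0.00978) in heterozygous libraries and 1.23 (edgeR adjusted p = 0.160) in homozygous ones. Without E9.0 heterozygous replicate 3 the adjusted p was 0.0527 and the difference 1.94.

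Hoxb6, of the upper trunk level, had 1 count in the 3 E9.0 heterozygous libraries together and 109 in the 3 of E9.5. The ratio of the depth-scaled counts was 63.7, with an exact 95% interval of 11.2 to 2538 that covers counting error only. Hoxb6 passed the filter only through its E9.5 levels, so the values given for its stage difference are a description and no independent support. The fitted log2 difference was 5.63 ± 1.02 (edgeR adjusted p = 5.97e-04), and it ran from 4.99 to 7.80 with each library left out. With no filter the difference was 5.64 (edgeR adjusted p = 4.17e-04). In homozygous libraries 4 counts stood against 34, a ratio of 4.36 (95% interval 1.55 to 16.9), with a fitted difference of 2.06 (edgeR adjusted p = 0.118). Most of those 34 counts came from homozygous replicate 1.

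In group 4, Hoxc4 was the gene called in both genotypes. It was at 1.91, 1.56 and 0.559 CPM in heterozygous and 1.503, 1.55 and 0.473 CPM in homozygous libraries at E9.0, and at 4.48, 2.61 and 3.66 against 3.31, 3.47 and 1.95 CPM at E9.5. The stages did not overlap in either genotype. Its log2 difference was 1.497 ± 0.40 (edgeR adjusted p = 0.0104) in heterozygous and 1.30 ± 0.43 (edgeR adjusted p = 0.0287) in homozygous libraries. The homozygous call was lost without E9.0 homozygous replicate 3 (edgeR adjusted p = 0.112) and without E9.5 homozygous replicate 1 (0.0703) or 2 (0.0832). It was also lost with no filter on low counts.

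The other genes of group 4 had positive stage differences that missed the threshold. Hoxb4 was at 5.51, 4.93 and 1.98 CPM in heterozygous and 5.94, 4.01 and 1.69 CPM in homozygous libraries at E9.0, and at 11.5, 7.28 and 8.84 against 11.5, 7.22 and 6.19 CPM at E9.5. The stages did not overlap in either genotype, with log2 differences of 1.21 ± 0.44 (edgeR adjusted p = 0.0582) and 1.11 ± 0.46 (edgeR adjusted p = 0.0867). Without a share of all genes beside it, that lack of overlap is no support for a difference. Hoxd4, the leading gene of group 4, was at 7.05, 9.87 and 4.39 CPM in heterozygous and 11.3, 10.8 and 3.31 CPM in homozygous libraries at E9.0, and at 13.8, 9.60 and 11.5 against 14.5, 11.1 and 5.03 CPM at E9.5. Its stages overlapped in both genotypes. Hoxa4, the lowest of the group per kilobase in both E9.0 groups, had differences of 1.46 ± 0.68 (edgeR adjusted p = 0.122) and 1.68 ± 0.76 (edgeR adjusted p = 0.111).

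**Figure D3:**
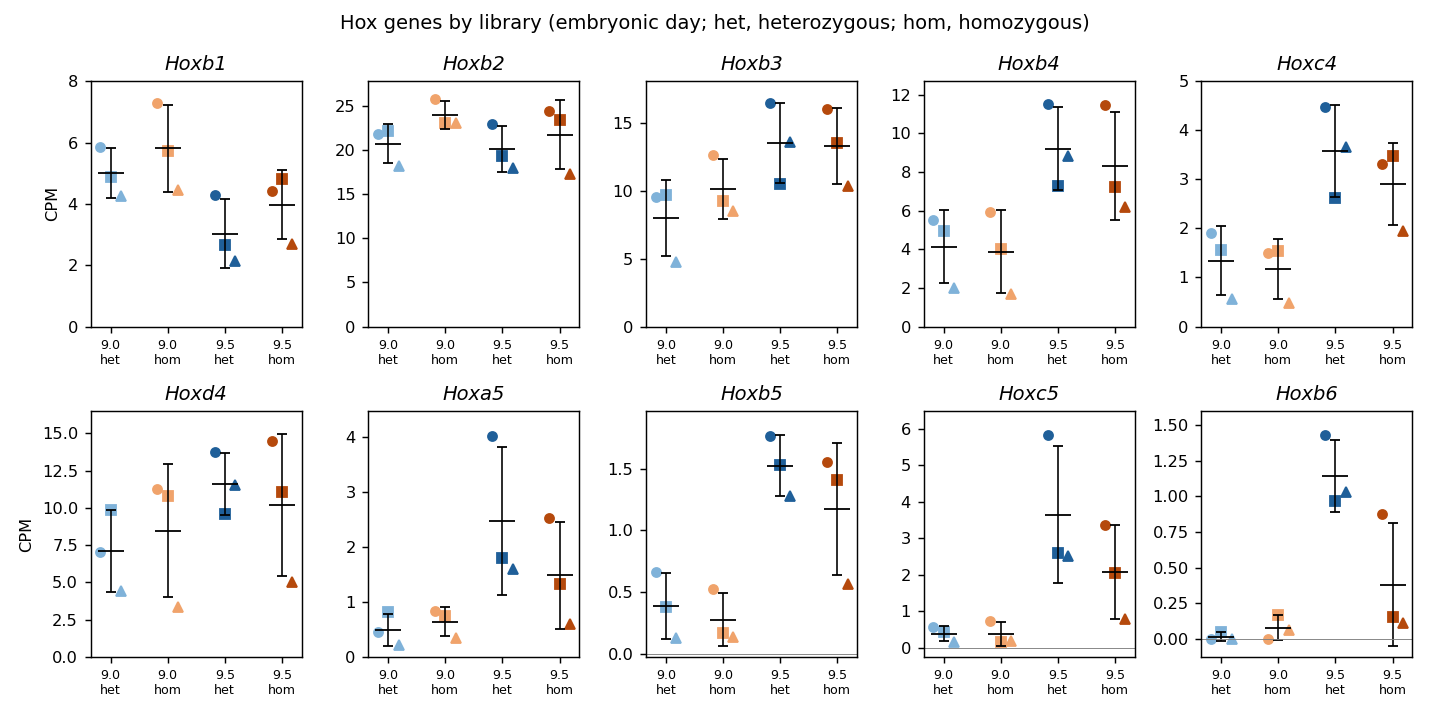
CPM (vertical axes, linear, a separate scale for each gene) of 10 Hox genes in every library, by stage and genotype; points are libraries, shapes are replicates, and black bars are the mean and SD of 3 libraries. The means of the genes of groups 5 and 6 are higher at E9.5, and the means of Hoxb2 lie between 20.1 and 24.0 CPM.

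Hoxb1, which marks the fourth rhombomere, was at 5.87, 4.88 and 4.26 CPM in heterozygous and 7.29, 5.73 and 4.46 CPM in homozygous libraries at E9.0, and at 4.30, 2.67 and 2.13 against 4.42, 4.82 and 2.70 CPM at E9.5. The stages overlapped in both genotypes. The log2 difference was -0.70 (edgeR adjusted p = 0.0568) in heterozygous libraries, and without E9.5 heterozygous replicate 1 it was past the threshold (-1.03, edgeR adjusted p = 0.00865).

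Hoxb3, a group 3 gene, was at 9.54, 9.65 and 4.73 CPM in heterozygous and 12.6, 9.28 and 8.51 CPM in homozygous libraries at E9.0, and at 16.4, 10.5 and 13.6 against 16.0, 13.5 and 10.3 CPM at E9.5. The heterozygous stages did not overlap, with a log2 difference of 0.79 ± 0.28 (edgeR adjusted p = 0.0452), while the homozygous stages overlapped and no call was made. The heterozygous call was lost without E9.0 replicate 1 (edgeR adjusted p = 0.0622) or 3 (0.123) and without E9.5 replicate 1 (0.138) or 3 (0.0899). That call was lost as well with no filter on low counts and with only the compared groups in the fit.

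No stage difference of group 2 was called. Hoxb2 was at 21.8, 22.2 and 18.2 CPM in heterozygous and 25.9, 23.1 and 23.1 CPM in homozygous libraries at E9.0, and at 23.0, 19.4 and 18.01 against 24.5, 23.5 and 17.3 CPM at E9.5. Its stage difference on the log2 scale was -0.04 in heterozygous and -0.14 in homozygous libraries, and that of Hoxa2 was -0.02 and -0.25. In group 3, Hoxd3 had differences of -0.16 and -0.38 and Hoxa3 of 0.07 and 0.14, and none of these was called. The stage comparisons of the genotypes share no library, and the interaction of stage and genotype is given with the genotype results.

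**Figure D4:**
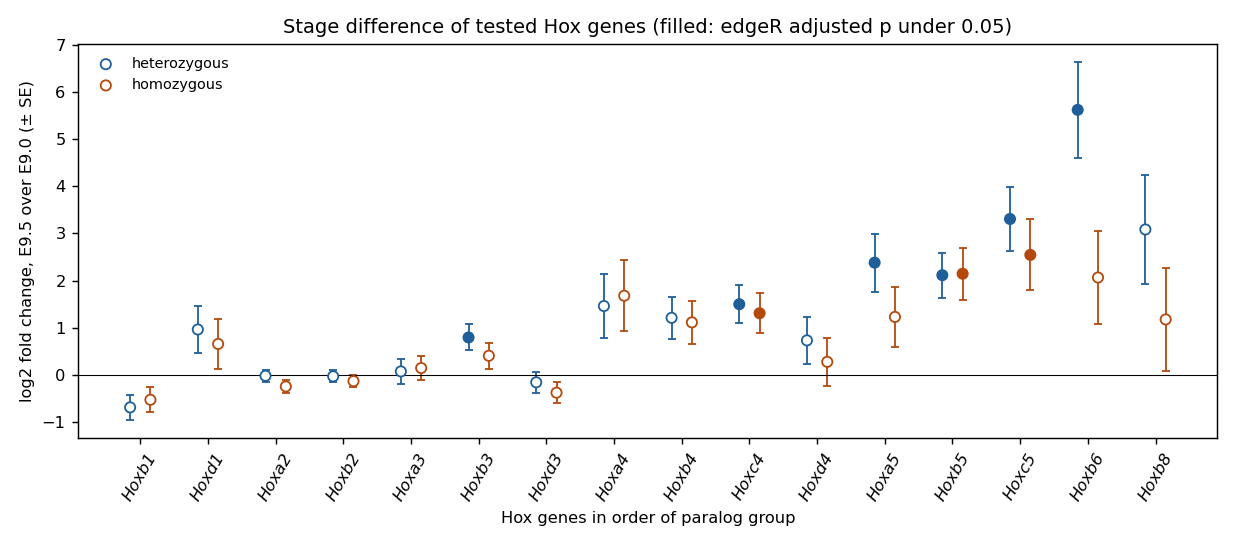
Log2 fold change of E9.5 over E9.0 (vertical axis, with SE) of tested Hox genes in paralog order (horizontal axis), in heterozygous and homozygous libraries; filled points passed the edgeR threshold. Values lie below 0 at Hoxb1, near 0 in group 2 in heterozygous libraries and above 0 in groups 4 to 8, with the highest value at Hoxb6 in heterozygous libraries. Hoxd1, Hoxb5, Hoxc5, Hoxb6 and Hoxb8 passed the filter only through their E9.5 levels.

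The stages also differed in what else the libraries held. Rn45s made up 6.05% to 37.4% of the counts at E9.0 and 4.40% to 5.90% at E9.5. Heart muscle markers summed to 65.7 to 310 CPM at E9.0 and 1880 to 2926 CPM at E9.5, with 10 of 10 higher in both genotypes. Erythroid markers summed to 536 to 1169 CPM at E9.0 and 2784 to 5192 CPM at E9.5, with 6 of 6 tested higher in both. Hindbrain rhombomere markers went the other way, from 153 to 205 CPM at E9.0 to 127 to 157 CPM at E9.5, with 4 of 6 lower in heterozygous and 5 of 6 lower in homozygous libraries. Of all genes, edgeR called 19.2% higher and 16% lower in heterozygous and 19.6% higher and 15.8% lower in homozygous libraries. Egr2, which drives rhombomeres 3 and 5, was at 7.62 to 17.4 CPM at E9.0 and 0.762 to 2.82 CPM at E9.5. Tail bud and axial progenitor markers summed to 13.8 to 16.9 CPM at E9.0 and 11.2 to 18.6 CPM at E9.5. Of the 4 tested, 1 was called higher and 2 lower in heterozygous libraries, and 0 higher and 3 lower in homozygous ones. Neural crest markers summed to 720 to 818 CPM at E9.0 and 415 to 621 CPM at E9.5, with 4 of 7 lower in both genotypes. The part of these tissues in the Hox differences between stages was not tested.

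The genotype comparison asked whether the Hox profile differed between homozygous and heterozygous libraries. The change was targeted to the neural crest, and Eftud2 itself differed by -0.29 at E9.0 and -0.19 at E9.5 on the log2 scale. How much of the Hox signal came from cells with the change was not tested. No Hox gene passed the threshold, at E9.0, at E9.5 or on average. At E9.0, 0 of the 17 tested Hox genes were called by edgeR, where 0.587% of all genes were. At E9.5, 0 of 17 were called, against 1.89% of all genes. For the average of both stages it was 0 of 17 against 2.96%, and for the interaction of genotype and stage 0 of 17 against 0.0675%. The number with an unadjusted p under 0.05 was 1 (Hoxa2) at E9.0, 1 (Hoxb6) at E9.5, 1 (Hoxa2) for the average and 0 for the interaction. The shares of all genes under that threshold were 13.3%, 13.4%, 16.9% and 8.6%, against 5.88% for 1 of 17. DESeq2 called 0 Hox genes in these comparisons, and limma-voom called 1, Hoxb6 at E9.5. A count of 0 among 17 genes is near these background shares, and a missed threshold does not show that the genotypes had equal levels.

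At E9.0 the genotypes did not overlap in either gene of group 2, and neither gene was called. Among all genes tested, 17.3% had no overlap at that stage in one or the other direction. The summed CPM of groups 9, 10 and 11 also had no overlap at E9.0, at 0.608 CPM or less in group 11, 0.338 CPM or less in group 10 and 1.35 CPM or less in group 9. Hoxa2, the selector gene of the second arch, was at 12.4, 12.5 and 11.6 CPM in heterozygous and 16.9, 15.1 and 15.6 CPM in homozygous libraries at E9.0, with no overlap. At E9.5 it was at 13.8, 9.68 and 12.4 against 15.8, 12.3 and 11.8 CPM, with overlap. Hoxa2 had a log2 difference of 0.38 ± 0.14 (edgeR adjusted p = 0.246) at E9.0, 0.15 ± 0.13 (edgeR adjusted p = 0.694) at E9.5 and 0.27 ± 0.09 (edgeR adjusted p = 0.145) on average. Hoxb2, whose CPM values are given above, also had no overlap at E9.0, with a difference of 0.22 ± 0.13 (edgeR adjusted p = 0.5005). Hindbrain rhombomere markers summed to 153 to 173 CPM in heterozygous and 185 to 205 CPM in homozygous libraries at E9.0, also with no overlap, and edgeR called 0 of 6 there, with 1 at an unadjusted p under 0.05, which 13.3% of all genes had. Endothelial markers summed to 262 to 281 against 310 to 320 CPM at that stage. Their part in the group 2 levels was not tested.

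At E9.5, Hoxb6 was at 1.43, 0.968 and 1.03 CPM in heterozygous and 0.877, 0.154 and 0.113 CPM in homozygous libraries, with no overlap. Among all genes tested, 20.9% had no overlap at E9.5. Its log2 difference was -1.57 ± 0.51 (edgeR adjusted p = 0.156). It was past the threshold with limma-voom (-2.07, adjusted p = 0.0478) and without E9.5 homozygous replicate 1 (-3.03, edgeR adjusted p = 0.00813). The group 5 differences at E9.5 were also below 0, and none was called. Hoxa5 was at -0.73 ± 0.47 (edgeR adjusted p = 0.578), Hoxb5 at -0.36 ± 0.36 (0.768) and Hoxc5 at -0.81 ± 0.47 (0.528) on the log2 scale. Group 4 had a median of -0.20 at that stage, against -0.0026 over all genes tested, and its genes had edgeR adjusted p of 0.81 or more. Members of these groups share a tissue and are not replicates, so their common sign is a description. At E9.5 neural crest markers summed to 563 to 621 CPM in heterozygous and 415 to 533 CPM in homozygous libraries, with 4 of 7 called lower by edgeR. Endothelial markers summed to 172 to 243 against 310 to 344 CPM, with 6 of 8 called higher, where 1.89% of all genes were called in either direction. Their part in the Hox values was not tested. E9.5 homozygous replicate 3 was the lowest of the 6 libraries in groups 4, 5 and 6, and also the lowest in somite markers and close to the lowest in Aldh1a2.

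**Figure D5:**
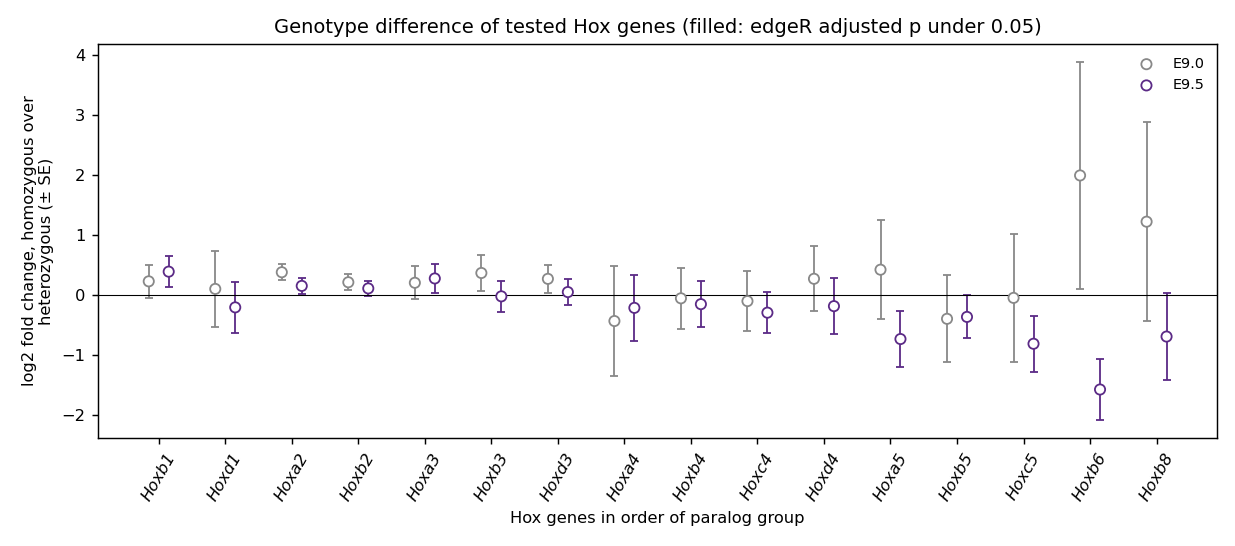
Log2 fold change of homozygous over heterozygous libraries (vertical axis, with SE) of tested Hox genes in paralog order (horizontal axis), at E9.0 and E9.5; open points did not pass the edgeR threshold. No point is filled, and the E9.5 values of groups 4 to 8 lie below 0.

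The most posterior counts differed at E9.0 in the other direction. Groups 9 to 13 together had 4, 6 and 9 counts in heterozygous and 14, 20 and 40 counts in homozygous libraries at E9.0, so all homozygous libraries were above all heterozygous ones. Among all genes tested, 9.07% had every homozygous library higher in CPM at that stage. At E9.5 they had 83, 19 and 9 against 19, 20 and 10 counts. The number of genes with at least 1 count was 17311 to 18988 in heterozygous and 18349 to 19783 in homozygous libraries at E9.0, with overlap. None of these 16 genes passed the filter. The sum was chosen after its values were seen and has no test here.

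Hox proteins bind DNA with TALE homeodomain partners, the Pbx, Meis and Pknox proteins. All 9 of these genes were tested. Between stages, 1 rose and 1 fell in heterozygous libraries (Pknox1 at 0.50 and Pknox2 at -0.59 on the log2 scale), and 4 rose and 1 fell in homozygous libraries (among them Pknox1, Pbx2 and Meis3 up by 0.38, 0.15 and 0.27, and Pknox2 down, at -0.37). The shares of all genes called were 35.2% and 35.4%. The list medians were 0.12 and 0.21, against 0.0082 and 0.015 over all genes. Between genotypes, edgeR called 0 at either stage (3 at E9.0 and 2 at E9.5 had an unadjusted p under 0.05), while in the average of both stages Pknox1 was higher (0.24) and Pbx3 lower (-0.20). Of all genes, 2.96% were called for the average, and 13.3% and 13.4% had an unadjusted p under 0.05 at E9.0 and E9.5.

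Upstream of the Hox clusters act Cdx factors, rhombomere factors and retinoic acid, which Aldh1a2 makes and the Cyp26 enzymes break down. Of 14 such genes 12 were tested. Between stages, Gdf11, a signal of trunk to tail transition, rose (0.39 in heterozygous and 0.58 in homozygous libraries), while 4 genes fell in both genotypes, Egr2 (-2.75 and -2.79) and Cyp26c1 (-0.99 and -0.52) among them. Cdx1 fell in homozygous libraries (-1.43). In all 5 of 12 were called in heterozygous and 6 of 12 in homozygous libraries, against 35.2% and 35.4% of all genes. Lower calls made up 16% and 15.8% of all genes. The list medians were -0.52 and -0.38. Egr2 acts in hindbrain segments that hold low-numbered Hox groups.

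Cyp26c1, which breaks down retinoic acid in the anterior hindbrain and head mesoderm, was the regulator called between genotypes at E9.5. It was at 44.8, 38.8 and 43.6 CPM in heterozygous and 53.7, 51.4 and 60.1 CPM in homozygous libraries at E9.0, and at 20.3, 23.6 and 19.9 against 40.6, 36.9 and 37.8 CPM at E9.5. The genotypes did not overlap at either stage. The log2 difference was 0.38 ± 0.08 (edgeR adjusted p = 0.0548) at E9.0, 0.85 ± 0.08 (edgeR adjusted p = 7.49e-05) at E9.5 and 0.61 on average. Cyp26a1 was also higher on average, by 0.41 (edgeR adjusted p = 0.0354). That is 1 of 12 tested regulators called at E9.5 and 2 of 12 on average, against 1.89% and 2.96% of all genes. Aldh1a2 was called in none of the 6 comparisons, with edgeR adjusted p of 0.994 at E9.0 and 0.879 at E9.5 between genotypes.

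Of the chromatin regulators of Hox genes, polycomb and trithorax proteins among them, 17 of 17 were tested. Between stages Bmi1 was higher in both genotypes (0.33 and 0.31), Jarid2 was lower in both (-0.21 and -0.29), Pcgf2 (-0.69) and Phc1 (-0.33) were lower in heterozygous libraries, and Ezh1 (-0.29), Cbx2 (-0.16) and Ring1 (-0.35) in homozygous ones. These 4 and 5 calls of 17 stand against the same 35.2% and 35.4%. Between genotypes edgeR called 0 of 17 at E9.0, at E9.5 and on average, with 2, 1 and 3 at an unadjusted p under 0.05, which 13.3%, 13.4% and 16.9% of all genes had. Of the noncoding and antisense genes of the clusters, 15 of 19 were in the table and 3 were tested. Haglr, of the D cluster, was higher at E9.5 in heterozygous libraries (1.41, edgeR adjusted p = 0.0127). In homozygous libraries 2 were lower at E9.5, among them Hoxaas2 (-0.59) of the A cluster. These are 1 and 2 of 3 tested, against 35.2% and 35.4% of all genes.

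Some members share bases with other genes of their cluster, which limits what their counts can show. Hoxa3 lies opposite Hoxaas2 and Hoxaas3, Hoxa7 opposite Hoxaas3, Hoxa11 opposite Hoxa11os, Hoxd3 opposite Haglr and Hoxd3os1, and Hoxd4 opposite Hoxd3os1. On the same strand, Hoxd3 shares exonic bases with Hoxd4, and Hoxa9 with Mir196b.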

How the data were processed

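Transcripts were counted in 12 libraries of mouse embryo heads, 3 in each of 4 groups of genotype and stage. The authors deposited raw counts per gene symbol, not normalized, and all 12 columns matched a sample. Per the submitters' processing notes, cutadapt, STAR, featureCounts and MultiQC were used with build mm10. Versions, annotation and strand setting are not given in the sources used here. Coordinates, overlaps and lengths come from GENCODE M21 (GRCm38, the same build), and promoters from RefSeq.

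In R 4.3.3, filterByExpr by group kept 14810 of 24421 symbols and left out 9611. edgeR 4.0.16 was run with TMM factors, 4 group means over all 12 libraries, robust quasi-likelihood F tests and Benjamini-Hochberg adjustment over all tested genes (threshold 0.05, two-sided). Libraries varied with a common biological coefficient of variation of 8.77%. Each SE is the log2 difference over the root of its F statistic. Alternatives used other scalings, DESeq2 1.42.0, limma-voom (limma 3.58.1), no filter, fewer samples and a replicate block. The steps were tested on simulated data. Replicate libraries differed by more than sampling noise.

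The members and lists were chosen with earlier results of these data known. Genes named with values in every library are those past the threshold, the leading gene per kilobase of each paralog group, and all of group 6. Other Hox genes given by library, and Aldh1a2 and Afp, were chosen after their values were seen. A few members and list genes are not reported here.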

Additional observations from a re-analysis of the deposited data

How the results depend on the processing

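Direction under the alternative runs was checked for 19 log2 differences of single Hox genes, those with an unadjusted edgeR p under 0.05. None of them changed sign. The other log2 differences were not checked in this way. Among counts of calls, posterior limits and sums, 137 alternative values held and 17 moved. Held does not mean unchanged: a count of 3 that went to 2 or 4, or of 7 that went to 5, was taken as held. A sum held where it moved by less than the SD of its 3 libraries, and a posterior limit where it stayed the same. At E9.5 the number of Hox genes called between genotypes went from 0 to 1 with limma-voom, and with a library left out it ran from 0 to 1. The stage count in heterozygous libraries was 7 and ran from 5 to 7 with a library left out. The stage count in homozygous libraries was 3, ran from 2 to 4 with a library left out, was 5 with DESeq2 and 1 with no filter. With a minimum of 2 CPM the posterior limit was group 4 in E9.0 heterozygous replicates 1 and 2, E9.0 homozygous replicate 2 and E9.5 homozygous replicate 3, and group 5 in E9.5 heterozygous replicates 1 and 3 and E9.5 homozygous replicate 1. With 0.5 CPM it was group 5 in both E9.0 replicates 3 and group 6 in E9.5 heterozygous replicate 2, which was also at 6 on total counts. The cause was not tested. Among single genes, 220 alternative values stayed on their side of the threshold, 26 passed it and 24 fell back.

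With the replicate number as a block the stage counts were 11 in heterozygous and 8 in homozygous libraries. The share of all genes called with that block is not given here, so these counts cannot be set against a background. Same-numbered libraries of the 2 genotypes had correlations of 0.11, 0.031 and 0.03 at E9.0 and 0.045, 0.031 and 0.069 at E9.5, not every library correlated best with its own number, and the numbers were not taken as pairs. Depth limits groups 6 to 13, where most members had few counts.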
